A study of Mus musculus with 6 samples.

Results

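The miR-344 family was described in 6 small RNA libraries of cultured oligodendrocyte progenitor cells (OPCs), the cells that give rise to the myelin-forming oligodendrocytes. The OPCs were grown from the cerebral cortex of newborn wild-type C57BL/6 mice and shaken off mixed glial cultures. Fibrinogen, which circulates in plasma and forms blood clots, had been added to the cells of 3 libraries, and the cells of the other 3 were untreated. All 6 libraries were of the same genotype and strain, and the age of the cultures is not given by the labels. The members were the 7 mature miRNAs named miR-344-3p, miR-344-5p, miR-344b-3p, miR-344c-3p, miR-344d-3p, miR-344g-3p and miR-344g-5p, chosen by name from the 1506 miRNAs of the table. All 7 had a row. Another 10 rows were also named miR-344 and are given beside them, which makes 17 rows in all.

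A miRNA gene is transcribed into a hairpin, and both sides of its stem can become a mature miRNA, the 5p arm and the 3p arm. The mature strand guides an Argonaute protein to messenger RNAs mainly through its seed, bases 2 to 8 counted from its 5′ end, so arms with the same seed can bind the same sites. Mouse miR-344 genes lie in tandem close to imprinted genes of the region known from Prader-Willi syndrome in humans. The study listed miR-344g-5p among the miRNAs predicted to target Acvr1, which encodes a type I receptor for bone morphogenetic proteins (BMPs), signals that hold back OPC differentiation.

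The mature sequences of the 7 members and of the most abundant other 5p arm, from RefSeq on GRCm38.p6, are shown because the seed divides the family. The seed is in capitals and each is read 5′ to 3′.
miR-344-3p: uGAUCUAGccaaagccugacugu
miR-344c-3p: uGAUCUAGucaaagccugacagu
miR-344b-3p: cAUUUAGCcaaagccugacugu
miR-344d-3p: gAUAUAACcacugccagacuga
miR-344g-3p: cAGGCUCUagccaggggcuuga
miR-344-5p: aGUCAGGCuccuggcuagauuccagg
miR-344g-5p: aGUCAGGCuccuggcaggagu
miR-344d-3-5p: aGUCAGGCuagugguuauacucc
The 5 member 3p arms held 4 different seeds. Only miR-344-3p and miR-344c-3p shared one, GAUCUAG, and they differed at C9U and U21A, with miR-344-3p first and positions counted from its 5′ end. miR-344b-3p matched miR-344-3p at 20 bases when shifted by 1 base, which is 90.9% of its 22 bases, but that shift and the changes at its start gave it the seed AUUUAGC. miR-344d-3p had the seed AUAUAAC, and miR-344g-3p had AGGCUCU. The 5p arms were more alike at this end: miR-344-5p, miR-344g-5p, miR-344d-3-5p and a further 3 of the 5p arms carried the same seed, GUCAGGC.

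RefSeq placed 13 Mir344 genes on the minus strand of chromosome 7, within 402187 bases at chr7:61683124-62085310 on GRCm38.p6. No other miRNA gene lay within 1000000 bases of them. Ndn, Magel2, Mkrn3 and Peg12, imprinted genes that encode proteins, began 262967 to 376561 bases past the end of the cluster at Mir344i. In the GENCODE vM39 annotation, Mir344b and Mir344d-3 overlapped exons, and Mir344, Mir344c, Mir344e, Mir344h-1 and Mir344h-2 introns, of the long non-coding RNA A230057D06Rik on the same strand. Mir344-2 lay in an intron and Mir344g in an exon of A330076H08Rik, another long non-coding RNA. The 13 genes encode 19 mature arms, of which 17 have a row. miR-344e-3p and miR-344i were not analysed here.

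The hairpins of Mir344 at chr7:61877770-61877864 and Mir344g at chr7:61982289-61982359, both on the minus strand of GRCm38.p6, are shown because the members miR-344-5p and miR-344g-5p come from them and were scarcely read. The 5p and 3p arms are in capitals.
Mir344: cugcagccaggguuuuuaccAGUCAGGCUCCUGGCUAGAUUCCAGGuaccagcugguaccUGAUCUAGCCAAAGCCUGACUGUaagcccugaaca
Mir344g: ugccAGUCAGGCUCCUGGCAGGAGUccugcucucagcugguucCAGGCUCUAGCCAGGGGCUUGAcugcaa
The Mir344g hairpin had the highest GC content of the 13, 62.0%, against 45.0% for the lowest in the cluster and a median of 51.7% over 1005 mouse hairpins.

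The libraries held 11897645 to 14847034 listed miRNA reads, in which a read may be listed more than once. Levels are given in TPM as the authors call them, which here are RPM with no correction for length, and 1 read was worth 0.0669 to 0.0841 TPM. A count of 0 in a library allowed up to 3 reads, 0.201 to 0.252 TPM. These limits and the intervals of shares cover counting error only. The table heads each library with a numbered mouse, 1 to 3 in each group. Neither it nor the labels say whether the same number in both groups is the same mouse, or whether the cultures were separate, so p-values measure only the spread between these libraries, and how much of it is technical is not known. Of 4 miRNAs of the oligodendrocyte lineage, all were read in every library. Their summed level was 2631 to 4211 TPM in fibrinogen-treated OPCs and 3501 to 3690 TPM in untreated OPCs. Within this list miR-219a-2-3p was at 462 to 695 TPM in fibrinogen-treated OPCs and 222 to 359 TPM in untreated OPCs (limma, adjusted p = 0.0836). The other miRNAs of this list overlapped between the groups. A list of 4 neuronal miRNAs led by miR-128-3p and miR-124-3p reached 91467 to 96834 TPM in fibrinogen-treated OPCs and 115258 to 122575 TPM in untreated OPCs. None of the 4 was at 0 in any library. Lists for other cells were also read. A list of 3 red blood cell miRNAs summed to 152 to 175 TPM in fibrinogen-treated OPCs and 196 to 675 TPM in untreated OPCs, and 2 miRNAs of mural cells to 2825 to 3866 TPM in fibrinogen-treated OPCs and 2179 to 2581 TPM in untreated OPCs. The sums for immune cells and endothelium overlapped between the groups. For endothelium the sum was 10598 to 13328 TPM in fibrinogen-treated OPCs and 10630 to 14101 TPM in untreated OPCs. For immune cells it was 1311 to 1579 TPM in fibrinogen-treated OPCs and 1397 to 2105 TPM in untreated OPCs. Within the immune list miR-150-5p was at 357 to 391 TPM in fibrinogen-treated OPCs and 190 to 272 TPM in untreated OPCs, while miR-142a-3p was at 748 to 930 TPM in fibrinogen-treated OPCs and 967 to 1560 TPM in untreated OPCs. Their part in the results was not tested.

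The members covered a wide range of levels. Averaged over the 6 libraries, miR-344-3p came first, followed by miR-344d-3p, miR-344b-3p, miR-344c-3p, miR-344g-3p, miR-344-5p and miR-344g-5p. The lowest library of each of the first 4 exceeded the highest library of the next in this order, and the last 2 did not differ beyond their spread. miR-344-3p alone made up 77.7% to 81.4% of the TPM of the 17 rows in a library, and miR-344-3p, miR-344d-3p and miR-344b-3p together 97.8% to 98.4%. For miR-344-3p every listed read number was even, in 6 of 6 libraries, and it has 2 precursors, Mir344 and Mir344-2, so the table may list each read once per precursor. The same was found for miR-344-5p, miR-344h-3p and miR-344h-5p, but miR-344-5p and miR-344h-5p had reads in only 2 libraries each. miR-344d-3p has 3 precursors, yet its read numbers were multiples of 3 in only 3 of 6 libraries. With the reads of the even-numbered rows counted once, miR-344-3p made up 63.6% to 68.7% of the family, and the order of the first 5 members was the same. Among all known miRNAs of the table, miR-344-3p ranked 79th and miR-344d-3p 167th by mean level as listed.

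**Figure D1:**
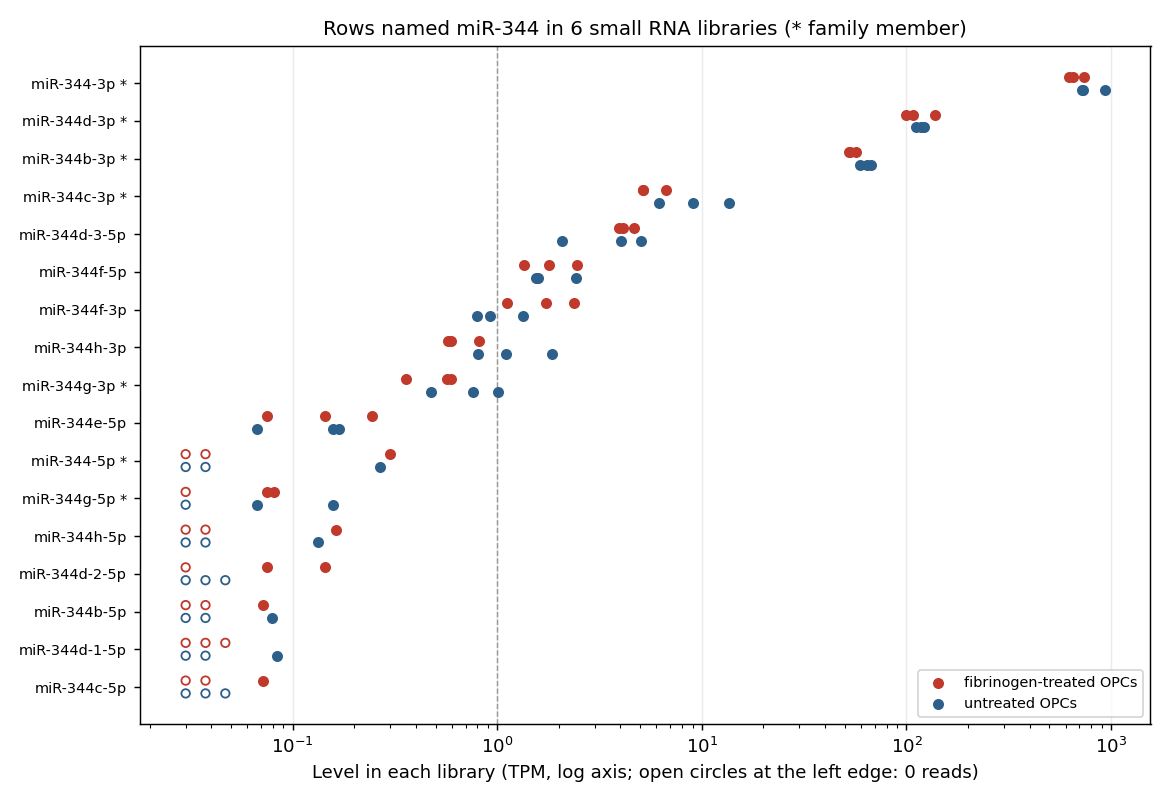
Level of each of the 17 rows named miR-344 in TPM on a log axis, 1 point a library, fibrinogen-treated OPCs above untreated OPCs in each row. Open circles mark libraries with 0 reads and the dashed line 1 TPM. The level falls from 929 TPM for miR-344-3p to rows with 0 reads in most libraries.

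The summed level of the 17 rows was 790, 830 and 943 TPM in fibrinogen-treated OPCs and 925, 1142 and 916 TPM in untreated OPCs. The groups overlapped, since the third fibrinogen-treated library lay above 2 of the 3 untreated ones. The family took 0.0812% to 0.0956% of the listed TPM in fibrinogen-treated OPCs and 0.0917% to 0.114% in untreated OPCs. With the even-numbered reads counted once, the sum averaged 519 TPM in fibrinogen-treated OPCs and 596 TPM in untreated OPCs. miR-128-3p, another of the miRNAs predicted for Acvr1, averaged 45234 TPM in fibrinogen-treated OPCs and 63655 TPM in untreated OPCs, far above the sum on either count. miR-342-3p, also predicted, averaged 644 TPM in fibrinogen-treated OPCs and 1111 TPM in untreated OPCs. In fibrinogen-treated OPCs this was below the family sum as listed, 854 TPM, and above the sum with reads counted once.

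The effect of fibrinogen was asked of the 4 members that reached 1 TPM in 3 libraries or more, all of them 3p arms. The other 3, miR-344g-3p, miR-344-5p and miR-344g-5p, fell below that filter and were not tested. miR-344-3p stood at 624, 654 and 733 TPM in fibrinogen-treated OPCs, against 733, 929 and 724 TPM in untreated OPCs. The third fibrinogen-treated library equalled the first untreated library to 3 digits, so the groups overlapped, and the second untreated library was far above the others. The log2 fold change on log2(TPM + 1) was -0.24 ± 0.14 (SE, 95% interval -0.56 to 0.08, limma, adjusted p = 0.310). Without that untreated library it was -0.12.

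miR-344c-3p, with the same seed, was read far less. It had 5.15, 6.69 and 5.13 TPM in fibrinogen-treated OPCs, from 69, 93 and 63 reads. In untreated OPCs it had 6.18, 13.5 and 9.09 TPM, from 78, 161 and 136 reads. All 3 fibrinogen-treated libraries lay at the low end, but the second of them was above the lowest untreated library. Of the 4 tested members it had the most negative log2 fold change, -0.62 ± 0.28 (SE, 95% interval -1.28 to 0.03, limma, adjusted p = 0.208), and only 3.62% of the 607 tested miRNAs had a lower one. It was -0.36 without the second untreated library and -0.87 without the first.

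miR-344b-3p varied little between libraries of a group, with a coefficient of variation of 4.16% in fibrinogen-treated OPCs and 5.88% in untreated OPCs. Its levels were 53.0, 52.2 and 56.4 TPM in fibrinogen-treated OPCs, against 59.4, 66.8 and 63.9 TPM in untreated OPCs. The 2 groups did not overlap, with all fibrinogen-treated libraries on the low side, which was the case for 8.73% of the 607 miRNAs tested. The log2 fold change was -0.23 ± 0.13 (SE, 95% interval -0.54 to 0.08, limma, adjusted p = 0.310), a level 0.853 times that of untreated OPCs on the log2(TPM + 1) scale. DESeq2 on the recovered reads called this member lower, with a log2 fold change of -0.39 and an adjusted p of 0.0203. Of the miRNAs with an adjusted p from DESeq2, 7.77% were called lower.

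miR-344d-3p had the log2 fold change nearest to 0 of the 4. It was at 99.9, 108 and 137 TPM in fibrinogen-treated OPCs and 118, 121 and 111 TPM in untreated OPCs. The lowest and the highest library were both fibrinogen-treated, so the untreated libraries lay inside their range. The log2 fold change was -0.03 ± 0.16 (SE, 95% interval -0.40 to 0.33, limma, adjusted p = 0.923), and leaving out the first fibrinogen-treated library made it 0.06.

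**Figure D2:**
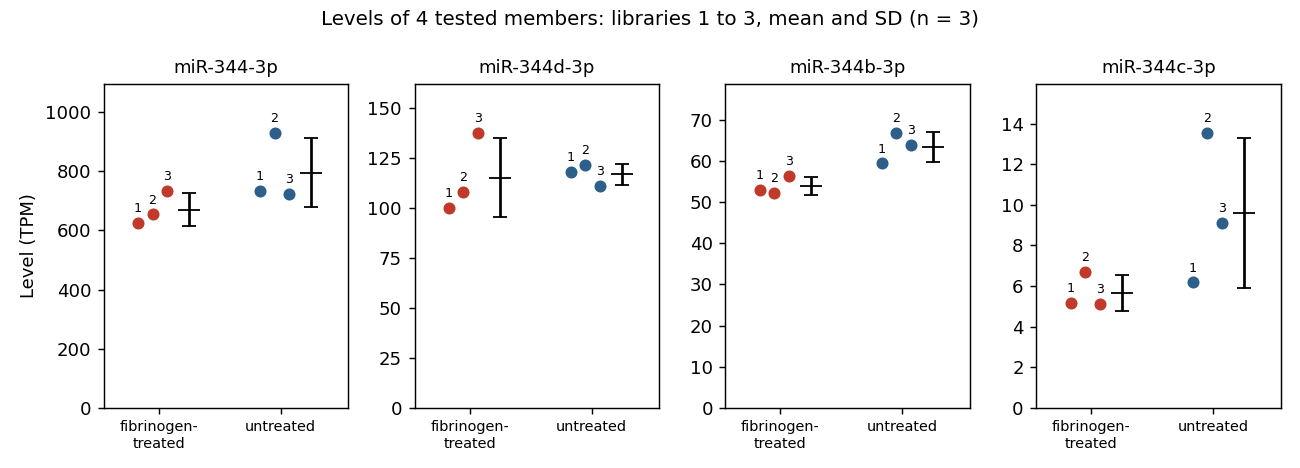
Levels in TPM of the 4 tested members, with fibrinogen-treated OPCs left of untreated OPCs and points numbered by library. The bar beside each group is the mean and SD of 3 libraries, and each axis starts at 0. The groups are apart only for miR-344b-3p, at 52.2 to 56.4 TPM in fibrinogen-treated OPCs and 59.4 to 66.8 TPM in untreated OPCs.

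Thus 0 of the 4 tested members were called by limma at an adjusted p under 0.05, against 2.80% of the 607 miRNAs tested. None of the 4 had an unadjusted limma p under 0.05, against 156 of the 607, the lowest being 0.0602 for miR-344c-3p. edgeR's quasi-likelihood test on the recovered reads also called none of the 4 (adjusted p = 0.151 to 0.506), against 8 higher and 4 lower among the 607. In that test 3 of the 4, all but miR-344d-3p, had an unadjusted p under 0.05, as did 139 of the 607. The log2 fold change was below 0 for 4 of 4, which was the case for 37.1% of all tested miRNAs. It was below 0 for 0 of the 3 other tested rows named miR-344. The median was -0.23 over the 4 members and 0.13 over all tested miRNAs. Relative to that shift of all miRNAs, the log2 fold changes were -0.75 for miR-344c-3p, -0.37 for miR-344-3p, -0.35 for miR-344b-3p and -0.16 for miR-344d-3p. The 4 neuronal miRNAs summed above were lower in fibrinogen-treated OPCs in their sum, of which miR-128-3p was the largest part. Of these, miR-124-3p overlapped between the groups, at 22173 to 26296 TPM in fibrinogen-treated OPCs and 22056 to 31833 TPM in untreated OPCs. The others of the sum were lower without overlap. In a longer list of 23 neuron-enriched miRNAs 15 had a log2 fold change below 0, with a median of -0.08. In that list limma called 1 lower, miR-128-3p, and 0 higher. Whether this bears on the members was not tested.

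**Figure D3:**
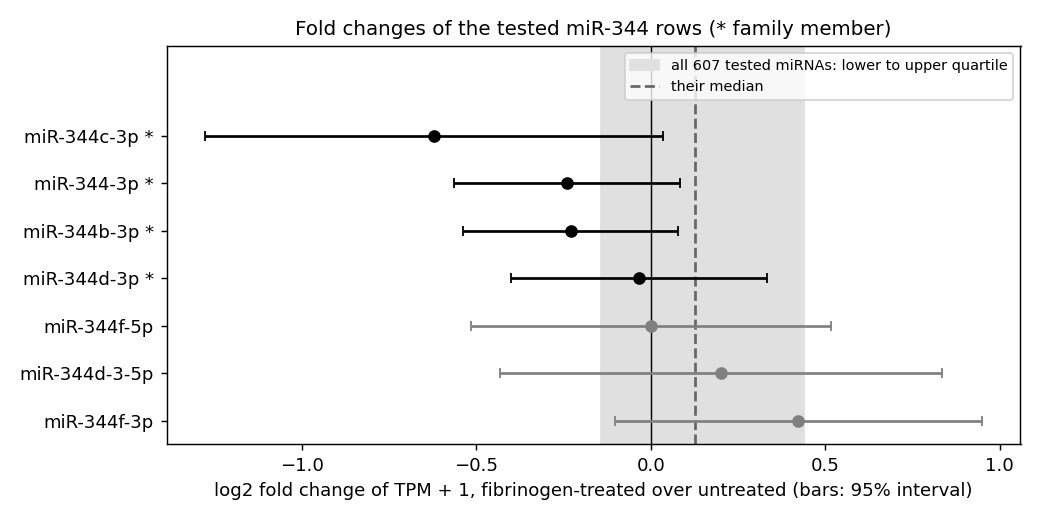
Log2 fold change of TPM + 1, fibrinogen-treated over untreated OPCs, for the 7 tested miR-344 rows, with 95% intervals. Members are black and other rows grey. The shaded band runs from the lower to the upper quartile of all 607 tested miRNAs and the dashed line their median, 0.13. Every interval crosses 0, and miR-344c-3p lies farthest to the left, at -0.62.

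Ratios between members do not depend on the scaling of a library. For every 1000 listed reads of miR-344-3p there were 8.26, 10.2 and 7.0 of miR-344c-3p in fibrinogen-treated OPCs, against 8.43, 14.6 and 12.6 in untreated OPCs. The ratio was thus lower on average under fibrinogen, at 8.49 ± 1.63 against 11.9 ± 3.13 in untreated OPCs (SD, n = 3 each), but the groups overlapped. With the reads of miR-344-3p counted once, the values are 2 times as high, 17.0 in fibrinogen-treated OPCs and 23.7 in untreated OPCs on average, and the comparison between the groups is unchanged. As listed, that of miR-344b-3p to 1000 of miR-344-3p was 80.6 ± 4.05 in fibrinogen-treated OPCs and 80.4 ± 8.21 in untreated OPCs. That of miR-344d-3p was 171 ± 14.5 in fibrinogen-treated OPCs and 148 ± 15.8 in untreated OPCs, with overlapping groups (160 to 187 against 131 to 161).

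Reads came almost entirely from the 3p side of the hairpins. The 3p arms made up 99.2% to 99.3% of the family's TPM in fibrinogen-treated OPCs and 99.3% to 99.5% in untreated OPCs. miR-344-5p is the other arm of the hairpins that carry miR-344-3p, Mir344 and Mir344-2, so shares of these arms pool both hairpins. It was listed with 4, 0 and 0 reads in fibrinogen-treated OPCs and with 0, 0 and 4 in untreated OPCs. With the reads of both arms counted once, the 3p share was 99.98% in fibrinogen-treated OPCs (13230 reads of the 3p arm and 2 of the 5p arm, exact 95% interval 99.95% to 99.998%) and 99.99% in untreated OPCs (15567 and 2 reads, interval 99.95% to 99.998%). The 5p arm had 0 reads in 4 of 6 libraries, and in those a ratio of the arms follows the 3p level alone. Such a ratio therefore cannot decide whether the arm balance differed between the groups.

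The same held for the hairpins of miR-344b and miR-344c. miR-344b-5p had 2 reads in all and miR-344c-5p 1 read, against 4629 and 600 reads of their 3p arms. miR-344f, no member by the rule, was the exception. Its 3p arm had 68 reads and its 5p arm 73 in fibrinogen-treated OPCs, a 3p share of 48.2% (exact 95% interval 39.7% to 56.8%). In untreated OPCs they had 41 and 72 reads, a 3p share of 36.3% (27.4% to 45.9%). These intervals overlap and cover counting error only.

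The Mir344g hairpin, the one that carries the arm predicted for Acvr1, gave few reads on either side. miR-344g-3p had 8, 5 and 7 reads in fibrinogen-treated OPCs and 6, 9 and 15 in untreated OPCs, or 0.509 ± 0.130 TPM and 0.745 ± 0.264 TPM (SD, n = 3 each). The ranges overlapped. miR-344g-5p had 1, 0 and 1 read in fibrinogen-treated OPCs and 2, 0 and 1 in untreated OPCs, 5 reads in all 6 libraries. No library was above the 3 reads that a count of 0 allows, so a difference between the groups was not detectable at this depth. The 3p arm held 90.9% of the hairpin's reads both in fibrinogen-treated OPCs (20 and 2 reads, exact 95% interval 70.8% to 98.9%) and in untreated OPCs (30 and 3 reads, interval 75.7% to 98.1%).

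**Figure D4:**
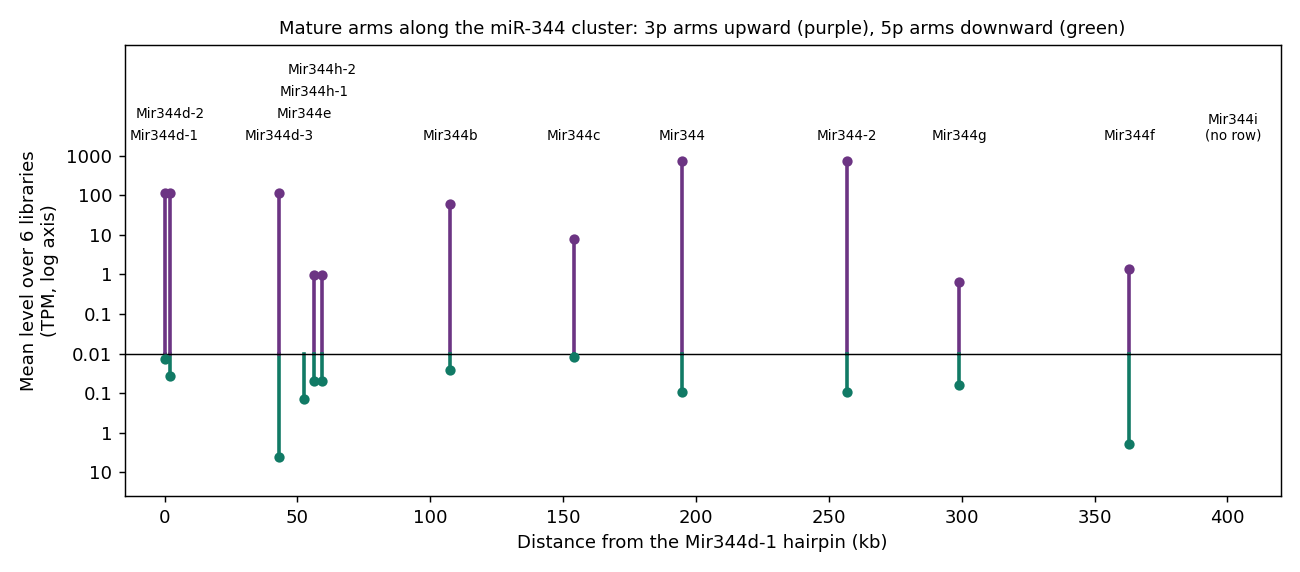
Mean level over the 6 libraries, in TPM on a log axis, of each mature arm at the position of its gene, in kb from Mir344d-1. The 3p arms point up and 5p arms down from 0.01 TPM. An arm with several precursors is drawn in full at each. The 3p arms exceed the 5p arms at every gene with both arms except Mir344f, and Mir344g has a 3p arm below 1 TPM between Mir344-2 and Mir344f.

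Because 6 of the 5p arms share a seed, their reads were also summed by seed. miR-344d-2-5p, miR-344e-5p, miR-344f-5p and miR-344h-5p have other seeds and were left out of this sum. The 6 arms with GUCAGGC together had 4.33, 4.24 and 4.72 TPM in fibrinogen-treated OPCs, against 4.28, 5.13 and 2.41 TPM in untreated OPCs. The fibrinogen-treated libraries lay within the untreated range. Of the 326 reads with this seed, 309, or 94.8%, were of miR-344d-3-5p and 5 were of miR-344g-5p. miR-344d-3-5p had a log2 fold change of 0.20 ± 0.27 (SE, 95% interval -0.43 to 0.83, limma, adjusted p = 0.649), and it was -0.08 without the third untreated library, which had the lowest level, 2.07 TPM.

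Matches to these seeds were looked for in the 3′ untranslated region of Acvr1, taken from GENCODE vM39 as the longest of its protein-coding transcripts, 1105 bases. The complement of the seed GUCAGGC, in DNA letters GCCTGAC, occurred 1 time, 64 to 70 bases after the stop codon, at chr2:58337481-58337487 on the minus strand of GRCm39. The site is shown because it holds the match to the seed of miR-344g-5p, which is in capitals.
Acvr1 site: tgggacctaatgctgGCCTGACtg
Of the 3′ untranslated regions of 12357 genes read over the same length, 7.05% held GCCTGAC. No match to bases 2 to 8 of any member 3p arm was in this region, including CTAGATC for miR-344-3p and miR-344c-3p, which 3.41% of the regions held. That of miR-128-3p, CACTGTG, occurred 1 time and in 17.0% of the regions, and that of miR-342-3p, GTGTGAG, did not occur and was held by 10.8%. A match is a string of letters and was not measured as a bound site.

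A seed of the family was also carried by other miRNAs of the table. miR-410-3p, from a miRNA cluster on chromosome 12, shared AUAUAAC with miR-344d-3p and little else.
miR-410-3p: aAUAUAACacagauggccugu
It had 11.05, 9.92 and 10.5 TPM in fibrinogen-treated OPCs, against 11.9, 22.1 and 14.9 TPM in untreated OPCs. Every fibrinogen-treated library was lower, with a log2 fold change of -0.55 ± 0.24 (SE, 95% interval -1.11 to 0.01, limma, adjusted p = 0.199). miR-344d-3p, at 99.9 to 137 TPM, thus had most of the reads with this seed. miR-7070-3p shared the seed of miR-344g-3p and had 1 read in all.

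The other tested rows were miR-344f-3p and miR-344f-5p beside miR-344d-3-5p. miR-344f-3p had 1.12, 1.73 and 2.36 TPM in fibrinogen-treated OPCs and 0.792, 0.925 and 1.34 TPM in untreated OPCs, and a log2 fold change of 0.42 ± 0.22 (SE, 95% interval -0.10 to 0.95, limma, adjusted p = 0.279). The groups overlapped. miR-344f-5p had 1.34, 1.80 and 2.44 TPM in fibrinogen-treated OPCs and 1.58, 2.44 and 1.54 TPM in untreated OPCs, with a log2 fold change of 0.00 ± 0.22 (SE) whose sign depended on the scaling. None of the 3 was called. The remaining 7 rows had 1 to 74 reads in all 6 libraries, the most for miR-344h-3p.

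The miRNAs most like miR-344-3p across the 6 libraries were found from log2(TPM + 1) centred on each miRNA's own mean, by the smallest root mean square difference. They were miR-384-5p (0.0502), miR-384-3p (0.0781), miR-670-3p (0.0924), miR-344b-3p (0.0960) and miR-137-3p (0.107), against a median of 0.326 over the 606 others. miR-384-5p, the nearest, had 569, 640 and 684 TPM in fibrinogen-treated OPCs and 731, 848 and 670 TPM in untreated OPCs. Like miR-344-3p it was highest in the second untreated library. miR-137-3p, enriched in neurons, had 6652, 8036 and 8884 TPM in fibrinogen-treated OPCs and 9251, 10221 and 9524 TPM in untreated OPCs. Among the family, miR-344d-3p came 35th in likeness and miR-344c-3p, which has the seed of miR-344-3p, 280th. miR-344c-3p had 63 to 161 reads a library, against 8358 to 11048 listed reads of miR-344-3p. How much counting error adds to its distance was not tested. All values of a library share its depth and scaling, so these distances describe these 6 libraries only.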

How the data were processed

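Small RNA was sequenced from 3 samples of fibrinogen-treated and 3 of untreated OPCs. The authors trimmed the reads (cutadapt 1.15), took out duplicates, aligned them (Bowtie 1.1.2) and counted miRBase and predicted miRNAs with miRDeep2. Their text names GRCm39 as the genome, and the labels name mm10. The deposited values, called TPM, are RPM: whole multiples of 1 step per library, from which 99.8% to 100% of values gave whole reads within 0.1.

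limma 3.58.1 (R 4.3.3, eBayes with a trend, Benjamini-Hochberg adjustment) compared the groups after a pseudocount of 1 TPM and log2, over the 607 miRNAs, 514 of them known, that reached 1 TPM in 3 libraries or more. The fits were tested on simulated data whose changes were larger than those of the members, so recovery of smaller changes was not tested. edgeR 4.0.16 and DESeq2 1.42.0 were run on the recovered reads as alternatives, with other pseudocounts, filters, scalings, a GC correction, a replicate block and each library left out.

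The members and lists were chosen with earlier results of these data known. Named were all members, other miR-344 rows, miRNAs sharing a seed, miR-128-3p, miR-342-3p, 4 neuronal miRNAs at most and the 5 miRNAs most like the most abundant member. Mature and hairpin sequences came from RefSeq on GRCm38.p6, and all 17 miR-344 rows matched.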

Additional observations from a re-analysis of the deposited data

How the results depend on the processing

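Of the 4 tested members, miR-344-3p, miR-344b-3p and miR-344c-3p kept a negative log2 fold change under every alternative run, at -0.41 to -0.12, -0.39 to -0.18 and -0.91 to -0.36. miR-344c-3p had no value at a minimum of 10 TPM. The only call of a member was that of miR-344b-3p by DESeq2 (-0.39, adjusted p = 0.0203, range over its alternatives 0.0203 to 0.577), and the cause was not tested. miR-344d-3p turned to 0.018 with a GC correction, also with the replicate block, and ranged from -0.167 to 0.0606 with 1 library left out. miR-344d-3-5p ranged from -0.0796 to 0.409 with 1 library left out. miR-344f-5p turned to -0.0028 at a pseudocount of 0.1, -0.086 with median-of-ratios scaling, -0.17 with quantile normalization, -0.16 and -0.15 with edgeR's quasi-likelihood and exact tests, -0.15 with DESeq2 and -0.24 with a GC correction, and ranged from -0.14 to 0.14 with 1 library left out. Median-of-ratios scaling moved the median of all miRNAs to 0.0031.

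Over all miRNAs, limma called 13 higher and 4 lower. Higher calls numbered 8 without the filter, 7 at a minimum of 10 TPM, 8 with edgeR's quasi-likelihood test, 27 with DESeq2, 39 with the replicate block and GC correction, and 0 to 39 with 1 library left out. Lower calls numbered 10 with edgeR's exact test, 37 with DESeq2, 1 with known miRNAs alone, 2 with a GC correction and 0 to 6 with 1 library left out. Deviations from the group means correlated at 0.04, 0.23 and 0.12 between libraries of the same replicate number. Between libraries of different numbers the correlations were -0.20 to 0.09. With 3 libraries a group, these values cannot decide whether the numbers mark pairs. The replicate block gave 11 higher and 4 lower and called no member. The planned arm ratio of the 2 miR-344 hairpins, log2 of 3p over 5p with 1 TPM added to each, differed by -0.25, fibrinogen-treated minus untreated. The exact permutation test gave p = 0.5, with 0.1 the smallest possible. This cannot decide a change in arm balance, since the 5p arm had 0 reads in 4 of 6 libraries. Counted once over its 2 precursors, miR-344-3p averages 335 TPM in fibrinogen-treated and 398 TPM in untreated OPCs. Depth limits the 3 members under the filter, and 3 libraries a group limit the rest.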
